A study of Mus musculus with 12 samples.

Results

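The interleukin-6 (IL-6) family of cytokines, their receptors and the feedback inhibitor Socs3 were examined in RNA-Seq of mouse abdominal aortas. The 10 members, Il6, Il6ra, Il6st, Il11, Il11ra1, Lif, Lifr, Osm, Osmr and Socs3, were taken by gene symbol from a table of 55092 features, and each matched 1 row. The aortas came from 12 male mice in 4 groups of 3, with 1 library per mouse. CCN2fl/fl mice, which carry floxed Ccn2 and no Cre, received saline (CFS) or angiotensin II (Ang II, CFA), and CCN2SMCΔ mice, which carry floxed Ccn2 and a tamoxifen-inducible Cre under the Myh11 promoter of smooth muscle cells (SMCs), received saline (CSS) or Ang II (CSA). The study's methods give tamoxifen to all mice, controls included, as 5 consecutive doses from 8 weeks of age with a 2-week washout. Infusion by mini-osmotic pump then lasted 7 days, with Ang II at 500 ng/kg/min. After this Ang II infusion the paper reports infrarenal aneurysms in nearly all CCN2SMCΔ mice. Few CCN2fl/fl mice had aneurysms, which were mild and lay higher in the aorta. The paper describes the sequenced tissue as infrarenal. The labels do not give the state of each aorta, so genotype and aneurysm cannot be told apart under Ang II. The Cre acts in Myh11-expressing cells of every organ, so the deletion is not limited to the aorta. The comparisons set these transcripts in the CCN2SMCΔ genotype against those in CCN2fl/fl mice, with and without Ang II. Because the controls carry no Cre, loss of Ccn2 and the presence of active Cre cannot be told apart.

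Cytokines of the IL-6 family bind a specific receptor and then signal through gp130, the chain encoded by Il6st that they share. IL-6 and IL-11 each use their own binding receptor with gp130, whereas leukemia inhibitory factor (LIF) pairs gp130 with the LIF receptor chain and oncostatin M (OSM) pairs it with the OSM receptor chain. The receptor complexes activate JAK kinases and STAT3, and STAT3 induces Socs3, which in turn inhibits the receptor complex. In the vessel wall these cytokines are known products of macrophages, fibroblasts and SMCs during inflammation.

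Values are FPKM, fragments scaled to transcript length and to a factor per library, so levels of different genes can be set roughly beside each other. Median-of-ratios scaling left the deposited values unchanged between libraries, so that factor need not equal depth. The trend of CSA mouse 03 with GC content, described below, limits such a reading within CSA. Depth, as fragments recovered from the deposited FPKM, ran from 14558580 to 23107802 per mouse. Differences are log2 fold changes of FPKM + 0.1 with standard errors (SE), tested by limma over the 14676 genes with at least 1 FPKM in at least 3 libraries. P-values are adjusted by the Benjamini-Hochberg method over those genes, and a gene is called at an adjusted p under 0.05 with an absolute log2 fold change over 1.5. The targeted gene, Ccn2, measured 709.5, 1108 and 480.1 FPKM in CFS and 436, 639.9 and 587 in CSS, and these groups overlapped. Its log2 fold change between them was -0.40 (SE 0.34, two-sided exact permutation p = 0.4), so a loss of Ccn2 was not shown under saline. Under Ang II it measured 1013, 1105 and 564 FPKM in CFA and 255, 331 and 399 in CSA, where every CSA mouse lay below every CFA mouse (log2 fold change -1.41, SE 0.34, limma adjusted p = 0.00622, short of the fold limit; two-sided exact permutation p = 0.1, the smallest that 3 against 3 allow). Whole-aorta Ccn2 includes cells the Cre does not reach, and 23.2% of its exonic bases are shared with the annotated gene Gm15270, so these values check the labels only in part.

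CSA mouse 03 stood apart from the other CSA mice. Over all tested genes, CSA mice 01 and 02 lay a root mean square distance of 0.505 log2 units apart, whereas mouse 03 lay 1.21 and 1.20 from them. Pairs within the other groups lay 0.586 to 0.743 apart. Across 14407 tested genes, the deviation of mouse 03 from the mean of mice 01 and 02 fell with the GC content of the gene's transcripts (Spearman correlation -0.66, a description across genes of 1 library). Against the other 2 of their group, which include mouse 03, CSA mice 01 and 02 gave 0.63 and 0.56, and the CFS, CSS and CFA libraries lay between -0.22 and 0.20. The deviation of mouse 03 also rose with exon length (Spearman correlation 0.24), with a median of -0.33 for genes under 3000 bases and 0.32 for genes over 8000 bases. What sets this library apart was not tested. Values that rest on mouse 03 are also given without it or with the GC trend of each library removed, the latter an alternative chosen after seeing the data.

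Members with GC-rich transcripts were lower in mouse 03 and those with GC-poor transcripts higher, apart from Il6. Relative to mice 01 and 02, mouse 03 was lower by 1.99 log2 units for Socs3 (transcript GC content 60.4%), by 1.38 for Lif (53.4%), by 0.85 for Osm (55.2%) and by 0.67 for Il11ra1 (57.1%). It was nearly equal for Il6ra (-0.10, GC 51.1%) and Il6 (0.18, GC 38.6%). It was higher by 0.61 for Il6st (48.5%), by 0.83 for Lifr (46.9%) and by 1.14 for Osmr (45.3%).

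**Figure D1:**
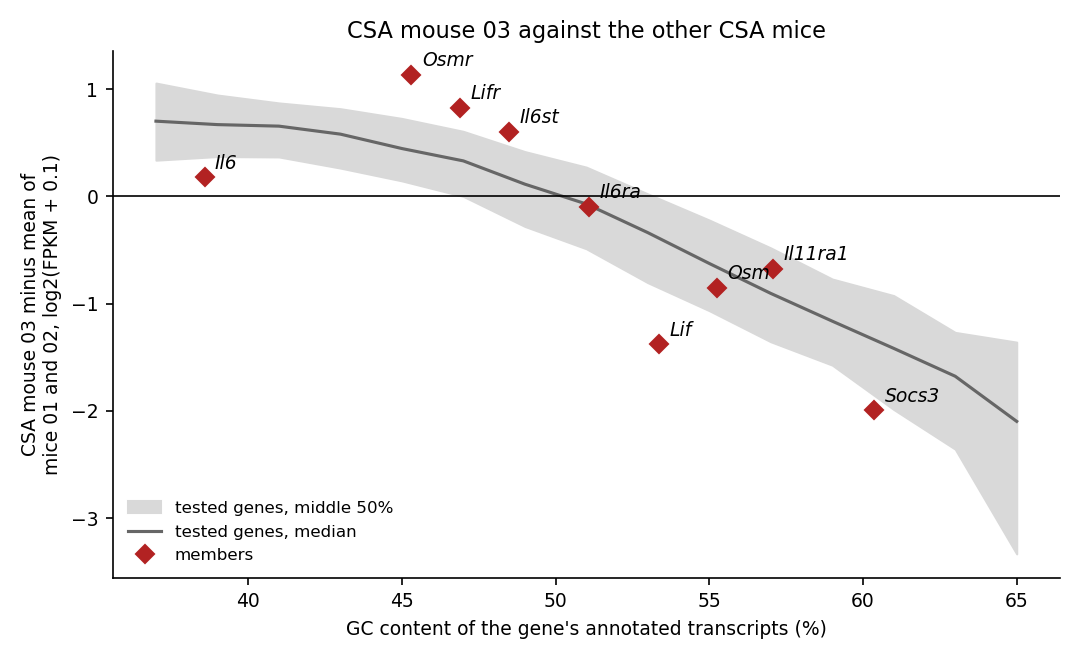
The horizontal axis is the GC content of a gene's annotated transcripts in percent, and the vertical axis is the log2(FPKM + 0.1) of CSA mouse 03 minus the mean of CSA mice 01 and 02. The gray line and band are the median and the middle 50% of the tested genes, and the diamonds are the 9 tested members, which run from Osmr at 1.14 to Socs3 at -1.99.

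Promoters are shown for the members whose transcripts separated CSA from CFA and whose promoter held a match to a motif of the factors that act downstream of, or induce, these cytokines. RefSeq promoters on GRCm38.p6, from 250 bases before to 50 bases after a transcript start, matched 9 of the 10 members, all but Osm, with 12 promoters in all. Both strands were searched for TTCNNNGAA (STAT), TGANTCA (AP-1), and GGGANTTTC (NF-kappaB), whose reverse complement is GAAANTCCC. The first 2 read the same on both strands. Of all 32851 promoters of this length, 8.3% hold the STAT letters, 7.81% the AP-1 letters and 1.11% the NF-kappaB letters. Each sequence runs 5′ to 3′ on the strand of its gene, and capitals mark the matches.
Il6 (chr5:30012864-30013163, + strand): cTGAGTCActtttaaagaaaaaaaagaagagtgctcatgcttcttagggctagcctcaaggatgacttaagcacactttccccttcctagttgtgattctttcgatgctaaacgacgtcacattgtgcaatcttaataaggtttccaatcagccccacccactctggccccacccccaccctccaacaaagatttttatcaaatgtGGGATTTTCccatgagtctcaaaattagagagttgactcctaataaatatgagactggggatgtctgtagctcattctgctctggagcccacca
Lif (chr11:4257318-4257617, + strand): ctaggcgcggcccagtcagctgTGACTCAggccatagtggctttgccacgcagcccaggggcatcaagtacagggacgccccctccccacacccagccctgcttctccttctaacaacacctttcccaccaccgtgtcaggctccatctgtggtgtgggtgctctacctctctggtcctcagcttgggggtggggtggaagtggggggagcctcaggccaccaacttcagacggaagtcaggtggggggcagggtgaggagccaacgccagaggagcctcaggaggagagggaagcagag
Osmr (chr15:6874264-6874563, - strand): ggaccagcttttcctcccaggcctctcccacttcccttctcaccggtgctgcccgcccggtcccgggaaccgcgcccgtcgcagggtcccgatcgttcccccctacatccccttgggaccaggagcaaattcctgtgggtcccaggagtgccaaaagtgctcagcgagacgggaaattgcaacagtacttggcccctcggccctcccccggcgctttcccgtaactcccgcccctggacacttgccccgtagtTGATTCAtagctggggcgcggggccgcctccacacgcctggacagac
Socs3 (chr11:117969317-117969616, - strand): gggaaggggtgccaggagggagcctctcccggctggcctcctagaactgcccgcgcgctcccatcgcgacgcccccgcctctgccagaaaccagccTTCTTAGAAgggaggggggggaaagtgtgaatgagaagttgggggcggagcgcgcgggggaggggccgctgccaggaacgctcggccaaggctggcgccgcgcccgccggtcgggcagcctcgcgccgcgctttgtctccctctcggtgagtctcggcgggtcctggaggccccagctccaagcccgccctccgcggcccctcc
Il6 held an AP-1 match that began 249 bases before the transcript start and an NF-kappaB match that began 44 bases before it. The AP-1 match of Lif began 228 bases before the start, and the STAT match of Socs3 began 154 bases before it. In Osmr the AP-1 letters lay just after the start. Of the promoters not shown, 1 of 2 for Il11 held an AP-1 match, 98 bases before its start, and those of Il6ra, Il6st, Il11ra1 and Lifr held none of the 3 motifs. A match describes the sequence only, and no binding was measured.

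Under Ang II, transcripts of 3 of the 4 ligands, of 2 receptors and of Socs3 were higher in every CSA mouse than in any CFA mouse, and Il11ra1 was lower in every one. Of the 9 members tested, 3 (Il6, Osm and Socs3) passed both limits as higher in CSA than in CFA and 0 as lower. Over all tested genes, 17.2% were called in this comparison, 8.95% as higher and 8.27% as lower. With an adjusted p under 0.05 at any fold, 6 members were higher and 1 lower, against 19.5% and 21.2% of all tested genes. Groups that did not overlap were found for 6 of the 10 members as higher and 1 as lower, against 23.4% and 25.1% of all tested genes. The median log2 fold change of the tested members was 1.45, beside -0.04 over all tested genes. Il11 stayed below 1 FPKM in every library and was not tested. Osm reached 1 FPKM only in the 3 CSA libraries, and Il6 and Lif otherwise only in 1 and 2 CFA libraries, so these ligands entered the test through the group in which they were high. In tissue RNA, fewer cells of a type and less RNA per cell cannot be told apart.

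Under saline, no member passed the test between genotypes. CSS against CFS gave 0 called members (limma, 0 also at an unadjusted p under 0.05; 0.0136% and 6.3% of all tested genes passed these limits), and log2 fold changes ran from -0.43 for Il6ra to 0.45 for Socs3. Groups did not overlap for 1 of the 10 members, Il6ra, as lower in CSS, against 9.31% of all tested genes. Its 95% confidence interval was -0.87 to 0.016 (limma adjusted p = 0.805), and with the GC trend removed it was -0.85 to -0.0047 (limma adjusted p = 0.568). Ang II in CCN2fl/fl mice gave 0 called members as well (CFA against CFS by limma, 0 at an unadjusted p under 0.05; 0.0273% and 9.42% of all tested genes passed these limits). In CCN2SMCΔ mice, Ang II against saline gave 5 called members, all higher (Il6, Osm, Lif, Il6ra and Socs3; 20.3% of all tested genes were called, 10.9% as higher). The 2 comparisons that contain CSA share those 3 libraries and are not independent. Il6, Osm and Lif entered the test through CSA, so the filter partly fixed both counts.

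**Figure D2:**
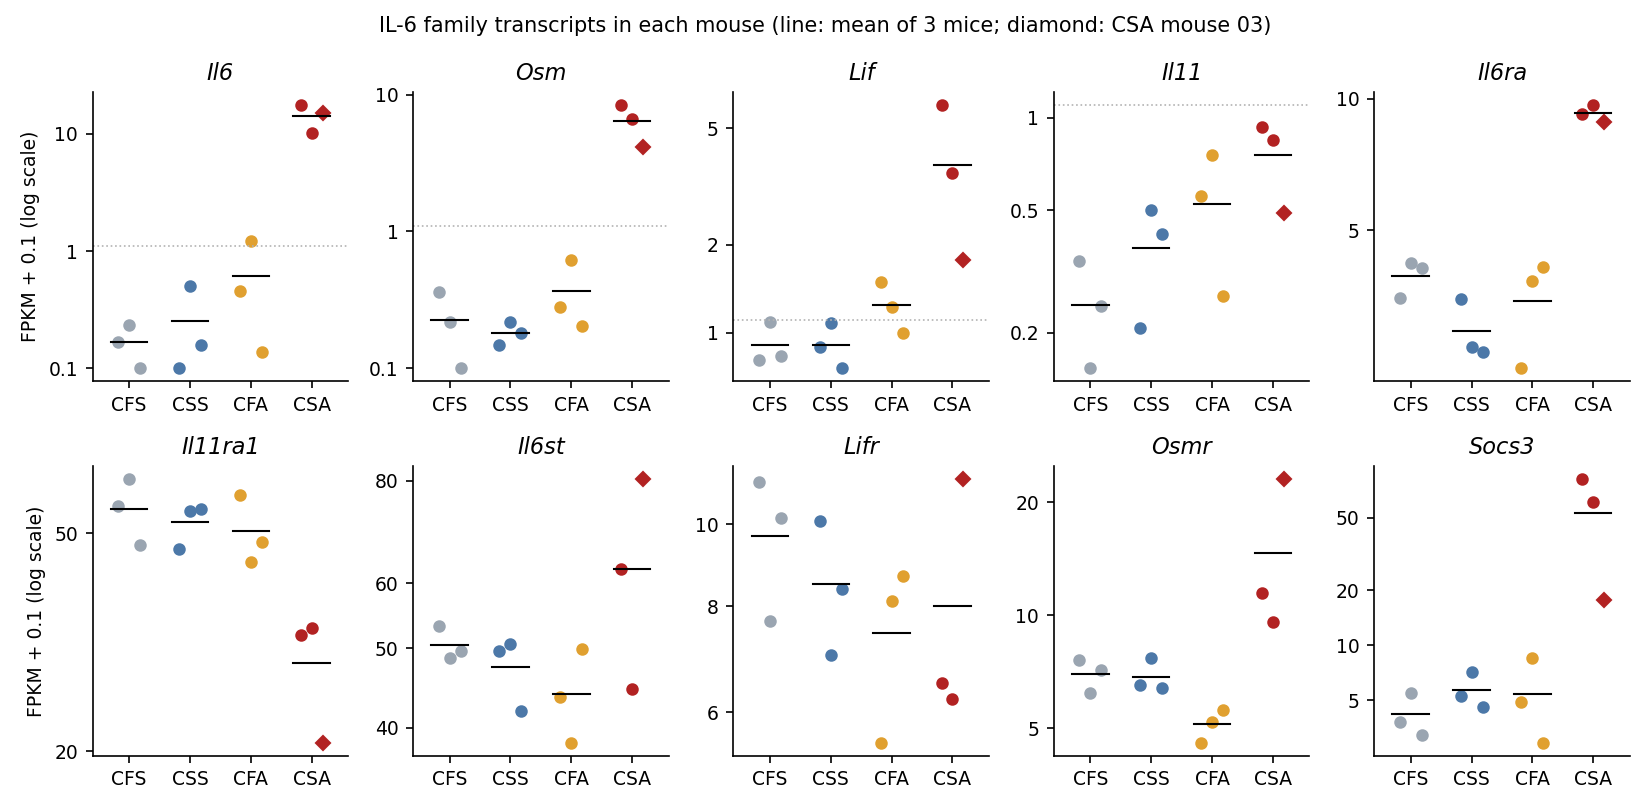
Each point is 1 mouse, with FPKM + 0.1 on a logarithmic vertical axis and the 4 groups on the horizontal axis; black lines are means of 3 mice, diamonds are CSA mouse 03 and dotted lines mark 1 FPKM in the panels of low transcripts. The CSA mice lie above all others for Il6 (10.02 to 17.5 FPKM), Osm, Lif, Il6ra, Osmr and Socs3, and below all others for Il11ra1.

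Il6 (ENSMUSG00000025746, chromosome 5, 30013114 to 30019981, mm10), the founding cytokine of the family, was close to absent outside CSA. It measured 0.0668, 0.132 and 0 FPKM in the CFS mice and 0, 0.4 and 0.0568 in the CSS mice. The CFA mice measured 0.359, 1.13 and 0.0389 FPKM, and the CSA mice 17.5, 10.02 and 15.1. No CSA mouse overlapped with any other mouse, and the highest of the others was CFA mouse 72. The CSA values rest on 516 to 864 fragments and those of CFA on 2 to 58, and a listed 0 allows up to 0.0716 FPKM in that CFS mouse and 0.0665 in that CSS mouse (3 fragments, counting error only). Il6 rose in CSA against CFA, from 0.508 ± 0.558 to 14.2 ± 3.83 FPKM (SD, n = 3 each; log2 fold change 5.03, SE 0.79, limma adjusted p = 4.55e-04). Against CSS it rose by 6.13 (SE 0.79, limma adjusted p = 9.16e-05). The size of these changes rests on values near 0, and with a pseudocount of 1 they were 3.36 and 3.70. Against CFA, the change was 4.21 without CFA mouse 74 and 5.79 without CFA mouse 72. CFA did not pass against CFS, with a log2 fold change of 1.44 (95% confidence interval -0.30 to 3.19, limma adjusted p = 0.633).

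Osm (ENSMUSG00000058755, chromosome 11, 4236420 to 4241026), oncostatin M, a cytokine of activated myeloid cells, was also low outside CSA. The 3 CFS mice measured 0.262, 0.118 and 0 FPKM and the 3 CSS mice 0.0474, 0.119 and 0.0809. In CFA the values were 0.182, 0.519 and 0.104 FPKM, and in CSA 8.28, 6.58 and 4.05. CSA mice carried 141 to 382 fragments of Osm and the CFA mice 5 to 25, and the CFS mouse listed at 0 allows up to 0.0766 FPKM. Osm rose in CSA against CFA, from 0.268 ± 0.22 to 6.30 ± 2.13 FPKM (SD, n = 3 each; log2 fold change 4.22, SE 0.57, limma adjusted p = 1.71e-04), and against CSS by 5.09 (SE 0.57, limma adjusted p = 3.35e-05). The lowest CSA value was that of mouse 03, and without it the change against CFA was 4.51. With a pseudocount of 1 the changes were 2.50 against CFA and 2.71 against CSS.

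Lif (ENSMUSG00000034394, chromosome 11, 4257557 to 4272514), on the same chromosome as Osm, encodes leukemia inhibitory factor. It was detected in all mice, at 0.709, 0.983 and 0.733 FPKM in CFS and 0.792, 0.980 and 0.655 in CSS. Under Ang II it measured 1.39, 1.13 and 0.900 FPKM in CFA and 5.90, 3.40 and 1.67 in CSA. All CSA mice were above all others, but mouse 03 only narrowly. The log2 fold change against CFA was 1.45 (SE 0.39, limma adjusted p = 0.0117), just short of the fold limit, and Lif rose against CSS by 1.89 (SE 0.39, limma adjusted p = 0.00209). Without mouse 03 the change against CFA was 1.91, and with the GC trend removed it was 1.56, both of which passed the fold limit.

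Il11 (ENSMUSG00000004371, chromosome 7, 4772373 to 4782859), interleukin-11, stayed low in all mice. Its FPKM came within 0.05 of a whole number of fragments in only 1 of 12 libraries with the annotated exon length, unlike the other members, for which all 12 did, so the fragments behind it are not given. Its values were 0.242, 0.0531 and 0.144 FPKM in CFS and 0.107, 0.402 and 0.320 in CSS. They were 0.456, 0.656 and 0.164 FPKM in CFA and 0.832, 0.750 and 0.389 in CSA, so that CSA and CFA overlapped. In a fit without the filter on low values the log2 fold change was 0.60 (95% confidence interval -0.54 to 1.74, limma adjusted p = 0.466), so a difference was not detectable in these mice.

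Il6ra (ENSMUSG00000027947, chromosome 3, 89864059 to 89913196), the IL-6 binding receptor, was the receptor with the tightest separation. It measured 3.40, 4.12 and 4.01 FPKM in CFS and 3.39, 2.61 and 2.54 in CSS. It measured 2.32, 3.73 and 4.02 FPKM in CFA and 9.15, 9.56 and 8.74 in CSA, and the lowest CSA mouse stood over 2 times above the highest of the other 9 mice. The log2 fold change against CFA was 1.46 (SE 0.20, limma adjusted p = 1.88e-04), short of the fold limit, and Il6ra rose against CSS by 1.66 (SE 0.20, limma adjusted p = 5.58e-05). It changed little with mouse 03 left out (1.49) and passed the fold limit with the GC trend removed (1.52).

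Il11ra1 (ENSMUSG00000073889, chromosome 4, 41699989 to 41769474), the IL-11 binding receptor, went the other way. Values were 55.95, 62.7 and 47.5 FPKM in CFS and 46.7, 54.8 and 55.3 in CSS. They were 58.6, 44.2 and 48.2 FPKM in CFA and 32.6, 33.5 and 20.7 in CSA, with every CSA mouse below the other 9. The log2 fold change was -0.82 against CFA (SE 0.20, limma adjusted p = 0.00669) and -0.88 against CSS (SE 0.20, limma adjusted p = 0.00373), both short of the fold limit. It was smaller without mouse 03 (-0.60 against CFA) and with the GC trend removed (-0.52). Il11ra1 has a near-identical copy, Il11ra2, and counting may have divided or dropped fragments that fit both.

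Il6st (ENSMUSG00000021756, chromosome 13, 112464070 to 112510086), which encodes gp130, was among the most abundant members in every group. It measured 53.1, 48.5 and 49.5 FPKM in CFS and 49.5, 50.5 and 41.8 in CSS. In CFA it measured 43.5, 38.3 and 49.7 FPKM, and in CSA 62.4, 44.4 and 80.2, so the groups overlapped. The log2 fold change of CSA against CFA was 0.47 (95% confidence interval 0.04 to 0.91, limma adjusted p = 0.0751), and without mouse 03 it was 0.27. Over the alternatives tried its adjusted p ranged from 0.00772 to 0.215.

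Osmr (ENSMUSG00000022146, chromosome 15, 6813577 to 6874969), the OSM receptor chain that pairs with gp130, measured 7.50, 6.12 and 7.04 FPKM in CFS and 6.41, 7.61 and 6.29 in CSS. It measured 4.49, 5.09 and 5.50 FPKM in CFA and 11.4, 9.48 and 22.9 in CSA. All CSA mice were above the other 9. All CFA mice were below all CFS mice, as in 10.8% of all tested genes, and this did not pass the test (log2 fold change -0.45, 95% confidence interval -1.04 to 0.14, limma adjusted p = 0.687). With CSA mouse 03 left out of the fit, the interval of this change was -0.72 to -0.17, which excludes 0 (limma adjusted p = 0.112). The log2 fold change of CSA was 1.42 against CFA (SE 0.27, limma adjusted p = 0.00151) and 0.99 against CSS (SE 0.27, limma adjusted p = 0.0104), short of the fold limit in both. Mouse 03 gave the highest value. Without it the changes were 1.04 and 0.61.

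Lifr (ENSMUSG00000054263, chromosome 15, 7090614 to 7197489), the LIF receptor chain, showed no detectable difference. It measured 11.1, 7.57 and 10.1 FPKM in CFS and 9.99, 6.91 and 8.29 in CSS. It measured 5.42, 8.02 and 8.58 FPKM in CFA and 6.39, 6.12 and 11.2 in CSA. The highest CSA value, that of mouse 03, exceeded every other mouse, and the other CSA mice lay within the range of CFA. The log2 fold change of CSA against CFA was 0.08 (95% confidence interval -0.51 to 0.66, limma adjusted p = 0.845), and its sign turned to -0.20 without mouse 03 and to -0.13 without CFA mouse 71.

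Socs3 (ENSMUSG00000053113, chromosome 11, 117966079 to 117970047), the inhibitor of gp130 signaling that STAT3 induces, measured 3.71, 5.38 and 3.13 FPKM in CFS and 5.16, 7.02 and 4.45 in CSS. It measured 4.76, 8.39 and 2.82 FPKM in CFA and 81.0, 60.9 and 17.6 in CSA. Every CSA mouse exceeded the other 9, and mouse 03 was the lowest of the CSA mice. Socs3 rose in CSA against CFA, from 5.33 ± 2.83 to 53.2 ± 32.4 FPKM (SD, n = 3 each; log2 fold change 3.17, SE 0.53, limma adjusted p = 7.14e-04), and against CSS by 3.0 (SE 0.53, limma adjusted p = 8.38e-04). The change against CFA was 3.83 without mouse 03 and 3.67 (SE 0.37) with the GC trend removed.

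**Figure D3:**
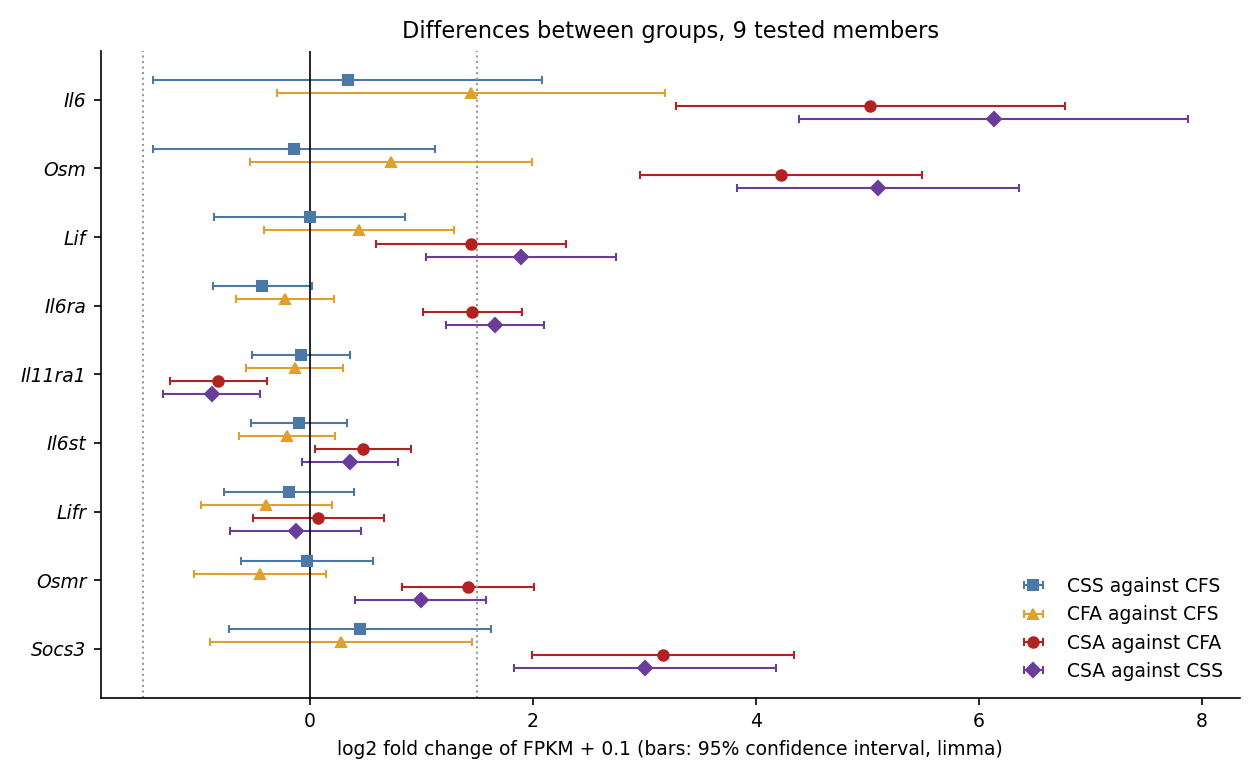
Horizontal positions are log2 fold changes of FPKM + 0.1 with 95% confidence intervals from limma for the 9 tested members, 1 symbol per comparison; dotted lines mark the fold limit of 1.5. Intervals of CSS against CFS and CFA against CFS span 0 for all 9 members, while CSA lies to the right of 0 for Il6, Osm, Lif, Il6ra, Osmr and Socs3 in both of its comparisons and to the left for Il11ra1.

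The order of levels within the family differed between groups. In CFS the means ran from 55.4 FPKM for Il11ra1 and 50.4 for Il6st through 9.59 for Lifr, 6.89 for Osmr, 4.07 for Socs3 and 3.84 for Il6ra to 0.808 for Lif, with Il11 (0.146), Osm (0.127) and Il6 (0.0663) last. Neighbors in this order overlapped between mice for Il11ra1 and Il6st, for Socs3 and Il6ra, and among Il11, Osm and Il6, and the other steps did not overlap. In CSA the means were 62.3 FPKM for Il6st, 53.2 for Socs3, 28.9 for Il11ra1, 14.6 for Osmr and 14.2 for Il6, followed by 9.15 for Il6ra, 7.90 for Lifr, 6.30 for Osm, 3.66 for Lif and 0.657 for Il11. Neighbors in that order overlapped except at the steps from Il6 to Il6ra and from Lif to Il11.

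Whether CSA departed from CFA more than CSS did from CFS was tested by the interaction term. The term passed both limits for 4 members, all positive (15.2% of all tested genes were called, 7.89% as positive). Among them, Il6 and Osm entered the test through CSA, the group in which they were high, so the filter partly fixed this count. The interaction term is given here on the log2 scale. It was 4.69 for Il6 (SE 1.12, limma adjusted p = 0.0103), 4.37 for Osm (SE 0.81, limma adjusted p = 0.00267), 2.72 for Socs3 (SE 0.75, limma adjusted p = 0.0212) and 1.88 for Il6ra (SE 0.28, limma adjusted p = 8.06e-04). Osmr had an interaction of 1.44 (SE 0.38, limma adjusted p = 0.0167), short of the fold limit. Lif (1.45, limma adjusted p = 0.0753) and Il11ra1 (-0.74, limma adjusted p = 0.0748) did not pass, and without mouse 03 Lif passed at 1.91. The interaction of Socs3 lost its call without CFA mouse 74 (2.34, adjusted p = 0.0529) and without CSS mouse 56 (2.58, adjusted p = 0.0527), within a range of 6.85e-04 to 0.0529 over its alternatives.

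Other genes of the pathway were measured from lists by role. Of 8 other ligands of the family, 4 were tested and 1 rose in CSA against CFA. Over all tested genes, 8.95% were called as higher in that comparison and 8.27% as lower. The ligand that rose was Ebi3, a subunit of IL-27, with a log2 fold change of 2.56 (limma adjusted p = 0.00158). Ctf1, cardiotrophin-1, had -0.49 and Clcf1, another gp130 ligand, 0.47. Clcf1 measured 8.24 and 7.67 FPKM in CSA mice 01 and 02 but 2.39 in mouse 03, with 3.55 to 4.06 in CFA. Of 4 other receptors, 3 were tested and 0 called (limma), with Il31ra at -1.01, Il27ra at 0.79 and Cntfr at -0.69.

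Among 13 signal transducers, 2 rose and 0 fell in CSA against CFA, where 8.95% of all tested genes were called as higher and 8.27% as lower. At an adjusted p under 0.05 by limma at any fold, 6 were higher and 2 lower, against 19.5% and 21.2% of all tested genes. Jak2, a kinase bound to the receptor chains, had a log2 fold change of 1.23, and Stat3 itself 0.55 (limma adjusted p = 0.00362), both short of the fold limit. Against CSS, Stat3 had 0.10 (limma adjusted p = 0.519), with means of 24.3 FPKM in CSS, 17.8 in CFA and 26.1 in CSA. The 7 other feedback inhibitors gave 0 calls by limma, with the phosphatases Ptpn1 and Ptpn2 at 1.099 and 0.97 and Socs1 at 0.64. At an adjusted p under 0.05 by limma, Ptpn1 and Ptpn2 were higher and Pias3 (-0.63) and Socs2 (-0.53) lower, all short of the fold limit. Socs1 was at 1.03 FPKM in CSA mouse 03, the lowest of its group, and without that mouse it passed at 1.63 (limma adjusted p = 3.38e-04). With the GC trend removed and mouse 03 kept, Socs1 did not pass (1.04, limma adjusted p = 0.0635). The 4 genes of receptor shedding also gave 0 calls against CFA. Timp3, a metalloproteinase inhibitor, was at -1.46 (limma adjusted p = 9.48e-06), and the shedding enzymes Adam17 and Adam10 at 0.97 (limma adjusted p = 4.71e-04) and 0.39. Against CSS, Timp3 passed as lower (-1.74, limma adjusted p = 2.09e-06). Of 6 genes that act on the stability of Il6 mRNA, 0 were called, with Zc3h12a, which encodes the RNase Regnase-1, at 1.101, Arid5a at -0.90 and Zfp36 at 0.11. Without mouse 03, Timp3 passed as lower (-1.55) and Zc3h12a as higher (1.63) against CFA. With the GC trend removed and mouse 03 kept, both stayed short of the fold limit (-1.47 and 1.37).

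Of 21 STAT3-responsive genes other than Socs3, all tested, 10 rose in CSA against CFA and 0 fell, where 8.95% of all tested genes were called as higher and 8.27% as lower. They had a median log2 fold change of 1.38 beside -0.04 over all tested genes. The largest were Ccl2, a monocyte chemokine (5.54, limma adjusted p = 3.13e-04), Lcn2, lipocalin-2 (5.03, limma adjusted p = 1.53e-05), and Timp1 (3.47, limma adjusted p = 4.61e-04). The count was 12 without mouse 03 and 12 with the GC trend removed, where 2382 of 14676 and 2392 of 14407 tested genes were called. Many genes on this list also respond to other factors, and STAT3 activity was not measured.

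**Figure D4:**
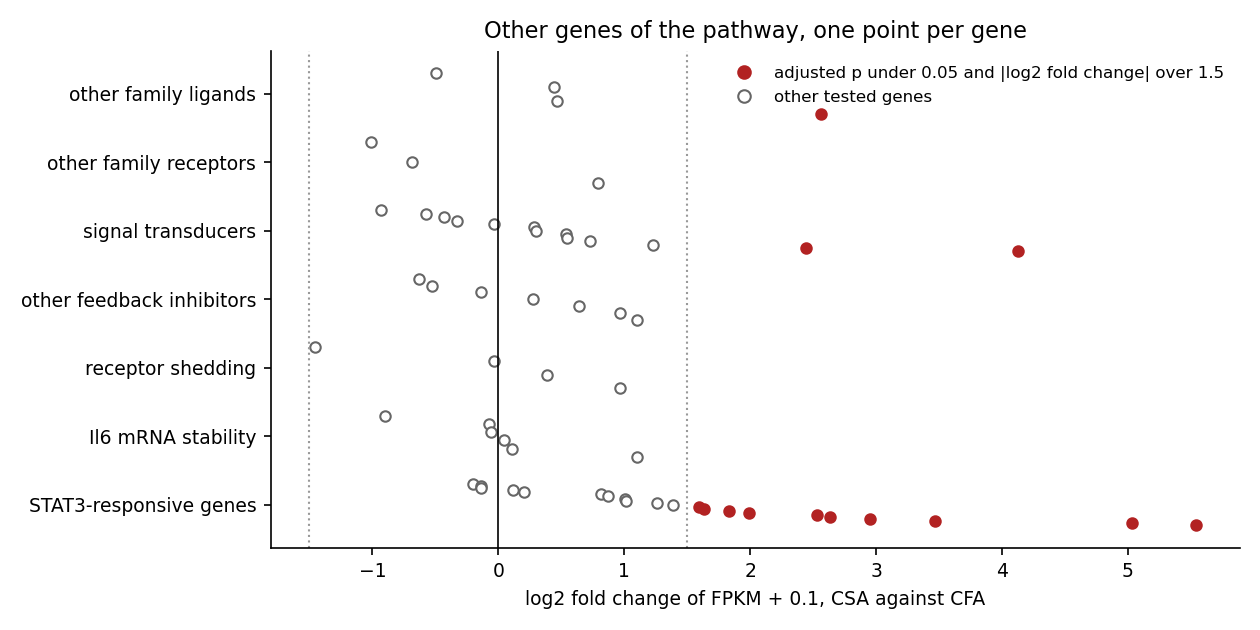
Each point is 1 tested gene, placed at its log2 fold change in CSA against CFA, with filled points for genes past both limits and dotted lines at 1.5 and -1.5. The filled points are Ebi3, 2 signal transducers and 10 STAT3-responsive genes, all to the right.

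Markers of cell types moved between the same groups as the members. In CSA against CFA, 8.95% of all tested genes were called as higher and 8.27% as lower. Smooth muscle markers summed to 5532 to 8420 FPKM in CFA and 800 to 959 in CSA, and all 8 fell, among them Myh11 (log2 fold change -4.17) and Acta2 (-2.86). Macrophage and monocyte markers summed to 237 to 471 FPKM in CFA and 1617 to 1847 in CSA, with 9 of 10 higher, Cd68 by 3.04 and Adgre1 by 2.93. Neutrophil markers summed to 11.1 to 28.0 FPKM in CFA and 519 to 566 in CSA, and all 7 tested rose, S100a8 by 5.27 and S100a9 by 4.81. Ly6g, also on that list, was too low to test, at 0 to 0.39 FPKM in CFA and 0 to 0.68 in CSA. T cell markers rose in 6 of 6, from sums of 0.559 to 2.15 FPKM in CFA to 22.6 to 33.2 in CSA, with Cd3d at 3.86 and Cd3e at 3.54. Cd3d, Cd3e, Cd3g, Cd4 and Cd8a reached 1 FPKM only in CSA, as did the neutrophil markers Mmp8 and Camp. These markers entered the test through the group in which they were high, so the filter partly fixed the 2 counts. The part of cell composition, or of aneurysm, in the changes of the members was not tested.

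The other marker lists gave fewer calls against CFA. Fibroblast markers gave 0 calls against CFA by limma (8 tested, 3 higher and 3 lower at an adjusted p under 0.05), with Pdgfra at 0.38 and Col1a1 at 0.96, although their sum was 3150 to 3483 FPKM in CFA and 5155 to 6113 in CSA. Against CSS, where their sum was 1633 to 1933 FPKM, 3 rose, Col1a1 (2.14), Lum (2.38) and Col3a1 (1.91). Of all tested genes, 10.9% were called as higher in that comparison. On the same list, Cd34 (-1.27), Pi16 (-0.94) and Dpt (-0.57) were lower against CSS at an adjusted p under 0.05 by limma. These were also the 3 that were lower against CFA, all short of the fold limit. Endothelial markers fell in 2 of 6, Pecam1 (-1.84) and Vwf (-2.36), with Cdh5 at -0.36. Kdr on the same list went the other way, at 0.92 against CFA (limma adjusted p = 0.0809), and rose against CSS by 1.59 (limma adjusted p = 0.00593). B cell markers rose in 1 of 2 tested, and the defining Ms4a1 was too low to test. Adipocyte markers fell in 2 of 6, Plin1 (-2.88) and Lep, with Adipoq at -1.71. Skeletal muscle and Schwann cell markers gave 0 calls each against CFA, with Ckm and Myh4 at 0 in every CSA library and Acta1 at -3.15. The skeletal muscle sum was 138 FPKM in CFS mouse 68 and 210.0 in CSS mouse 55 but 2.31 to 4.19 in the other 10 mice, and against CSS, Ckm and Acta1 passed as lower. Without CFS mouse 68 the counts of called members were the same in all 5 comparisons, and without CSS mouse 55 the interaction gave 5 in place of 4 and the other comparisons the same counts.

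**Figure D5:**
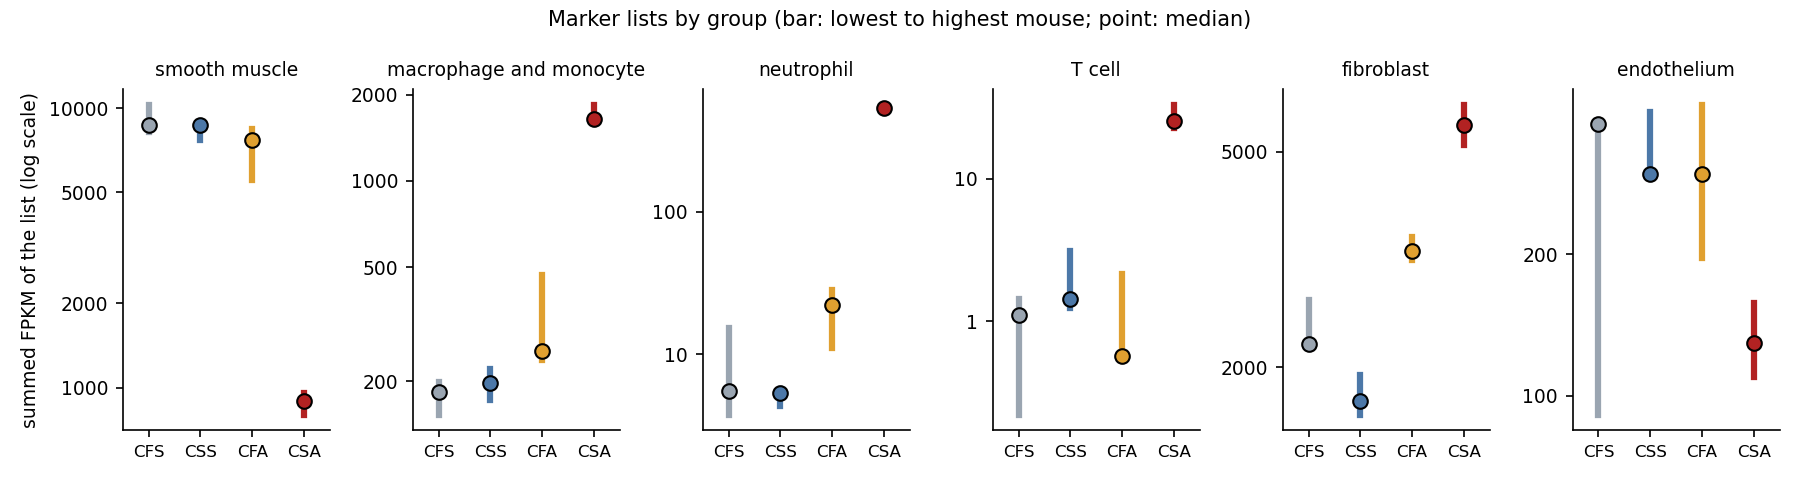
Bars run from the lowest to the highest mouse of a group and points are the median of 3 mice, for the summed FPKM of each marker list on logarithmic vertical axes. In CSA the macrophage, neutrophil and T cell sums lie above every other group and the smooth muscle sum below them.

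Within CFA the members did not share 1 order of mice. CFA mouse 72 had the highest Il6, Osm, Il11 and Socs3 of its group and the highest macrophage and monocyte sum, 471 FPKM beside 254 and 237 in mice 71 and 74. CFA mouse 74 had the lowest values of those 4 transcripts in its group and the lowest macrophage sum. In contrast, Il6ra (4.02 FPKM), Osmr (5.50), Il6st (49.7) and Lifr (8.58) were highest in mouse 74, and Lif (1.39) and Il11ra1 (58.6) in mouse 71. With 3 mice this is a description and was not tested.

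Across the 12 libraries, the tested genes whose log2(FPKM + 0.1) was most like that of a member are given by Pearson's r, as a description in which the points share the 4 groups and the difference of CSA from the rest. The closest to Il6 were Vav1 (0.98), Il21r and Wdhd1, and the closest to Osm were Cd14 (0.99), Havcr2 and Tlr9. Socs3 was closest to Rhog (0.99), Limd2 and Dok3, and Lif to Mmp14 (0.97), Limd2 and Adap1. Il6ra was closest to Xdh (0.98), Pglyrp2 and Tmem156. Osmr was closest to Ankle2 (0.98), Nsd3 and Pnpt1. Il11ra1, the member that was lower in CSA, was closest to Pkdcc (0.98), 2210016L21Rik and Pomgnt2. For Il6st and Lifr, whose groups overlapped, the highest values were lower, at 0.92 for Etnk1, ahead of Eif4g3 and Tor1aip1, and at 0.90 for Itsn2, ahead of Rasa2 and Lipt1.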

How the data were processed

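RNA-Seq of abdominal aortas from 12 male mice was used (poly(A)-selected RNA, read pairs of 150 bases). The authors deposited FPKM per gene and mouse without pooling. The submitters' processing notes name HISAT2 2.0.5, StringTie 1.3.3b, featureCounts 1.5.0-p3 and mm10. Groups came from the sample labels. Symbols, positions and exon lengths came from GENCODE M21. With those lengths, 98.1% to 98.5% of values under 100 fragments lay within 0.05 of a whole number (Il11 did not), and the sums served as depth, which limits precision at low FPKM. The labels give no litters, so p-values measure the spread between these mice.

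In R 4.3.3, log2(FPKM + 0.1) was fitted by limma 3.58.1 (eBayes with trend and robust) with 1 coefficient per group over 12 libraries. The pseudocount understates folds of low genes. The fit was tested on simulated data. Tables were made with pandas 2.3.3 and numpy 2.4.6 under Python 3.11.15, and plots with matplotlib 3.10.9.

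The members, lists and tests were chosen with earlier results of these data known. Named were the members, Ccn2, the 3 genes of each pathway list with the largest absolute change in CSA against CFA, the first 2 markers of each cell type, and the 3 genes most like each tested member. Stat3, Pias3, Socs2, Lum, Col3a1, Cd34, Pi16, Dpt, Vwf, Kdr, Lep and Myh4 were named after their values were seen. The same holds for Ly6g, Mmp8, Camp, Cd3g, Cd4 and Cd8a. Some genes that this rule covers are not reported here. Alternatives were a pseudocount of 1, other filters, scalings and limits, plain eBayes, only the 2 groups compared, and each mouse left out. Removal of a lowess trend on transcript GC content (span 0.3) was added after seeing the data.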

Additional observations from a re-analysis of the deposited data

Results flagged for a closer look

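For 4 members the genotype difference under Ang II differed from that under saline by limma's interaction term with both limits, where 15.2% of all tested genes were called, 7.89% as higher. Among them, Il6 and Osm entered the test through CSA, the group in which they were high, so the filter partly fixed this count. The difference of differences was 4.69 for Il6 (SE 1.12), 4.37 for Osm (SE 0.81), 2.72 for Socs3 (SE 0.75) and 1.88 for Il6ra (SE 0.28) on the log2 scale, with limma adjusted p-values of 0.0103, 0.00267, 0.0212 and 8.06e-04. In each, all CSA mice lay above the other 9, as they also did for Lif and Osmr, whose interaction was 1.45 (limma adjusted p = 0.0753) and 1.44 (limma adjusted p = 0.0167, short of the fold limit). All CSA mice lay above all CFA mice in 23.4% of all tested genes. The share in which they lay above the other 9 was not counted. Groups of 3 mice were not examined for outlying samples by a formal test.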

How the results depend on the processing

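The count of called members in CSA against CFA, 3 as reported, was 6 with the same total in every library, 7 with an adjusted p without a fold limit, 5 with GC content adjusted and 5 with GC content adjusted and CSA mouse 03 left out. Lif and Il6ra were added under each of these, Osmr under the first and second and Il11ra1 under the second, and their changes stood short of the fold limit as reported. Over all tested genes, 2528 of 14676 were called as reported and 2392 of 14407 with GC content adjusted. Without a fold limit, 19.5% of all tested genes were higher and 21.2% lower. In CSA against CSS, 5 as reported, it was 3 with a pseudocount of 1, where Lif (1.26) and Il6ra (1.41) fell short of the fold limit. Leaving out each mouse in turn gave 3 to 4 members in CSA against CFA, 4 to 5 in CSA against CSS, 3 to 5 for the interaction and 0 to 0 in CSS against CFS and in CFA against CFS. Ccn2 in CSA against CFA passed at -1.41 without the fold limit and at -1.56 with GC content adjusted and CSA mouse 03 left out. With each mouse left out, Ccn2 ran from -1.71 to -1.23, with limma adjusted p-values of at most 0.0277. The value of -1.71, without CFA mouse 74, passed both limits. Single mice also decided these calls: Osmr against CFA passed without CSA mouse 01 (1.54) or 02 (1.67), Il6ra against CFA without CFA mouse 72 (1.55) or 74 (1.60), Lif against CFA without CFA mouse 71 (1.59) or CSA mouse 03 (1.91), Lif against CSS failed without CSA mouse 01 (1.47), and the interaction of Osmr passed without CFS mouse 69, CSS mouse 55, CFA mouse 74 or CSA mouse 01 or 02 (1.51 to 1.69). The cause was not tested.

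Lifr, which passed in none of these comparisons, changed sign with single mice left out, from -0.20 to 0.23 against CFA, from -0.40 to 0.027 against CSS (0.0053 without CSS mouse 54) and from -0.013 to 0.42 for the interaction, and was -0.13 against CFA with GC content adjusted and CSA mouse 03 left out. The direction of the other 8 tested members held under every alternative run in the 2 comparisons of CSA and the interaction. Median-of-ratios scaling gave the deposited scaling back, and the same total in every library moved the median of all genes in CSA against CFA from -0.04 to 0.04. No interaction could be fitted with only the 2 groups compared. No paired analysis was possible because the labels number the mice differently in each group. With a pseudocount of 1 the interaction was 3.27 for Il6 and 2.55 for Osm. Single mice also moved the size of called changes by over 1.5 times, with Il6 against CSS at 6.80 without CSS mouse 55, the interaction of Il6 at 3.88 without CFA mouse 74 and 5.45 without CFA mouse 72, and Socs3 without CSA mouse 03 at 3.67 against CSS and 3.38 for the interaction. Low levels limit Il11, and low counts Il6 and Osm outside CSA.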
